A study of Mus musculus with 24 samples.

Results

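Spp1, Angpt1, Amigo2, Trib2 and Casp1 are 5 of the 23478 gene symbols counted in 24 libraries of 4T1-T cells, a mouse breast cancer line. They were picked by symbol because earlier results showed them to change between lung-derived and tumor-derived cells or between hairpin labels. All 5 passed the filter on low counts, which left 12625 genes. In these data the 5 genes shared 1 outline: they were high in lung-derived cells under every hairpin label and in tumor-derived cells labelled shAsns-1, and low in tumor-derived cells labelled shAsns-2 or shRenilla. Since that outline is why they were chosen, their levels are given as a description, with no test.

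The 5 genes act at different places. Spp1 encodes osteopontin, a secreted phosphoprotein of bone matrix that binds integrins and CD44 and is often abundant in metastatic tumors and in macrophages. Angpt1 encodes angiopoietin-1, a secreted ligand of the endothelial receptor TIE2, best known from mural and other mesenchymal cells. Amigo2 encodes a leucine-rich repeat adhesion protein of the cell surface, Trib2 a Tribbles pseudokinase that brings the ubiquitin ligase COP1 to C/EBP transcription factors, and Casp1 the protease of inflammasomes that cuts interleukin-1 beta, interleukin-18 and gasdermin D.

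Cells had been recovered from lung metastases or from primary tumors with 6-thioguanine (6TG), a drug that 4T1 cells survive, and received their hairpin afterwards. The 6 groups were lung shAsns-1, lung shAsns-2, lung shRenilla, tumor shAsns-1, tumor shAsns-2 and tumor shRenilla, with 4 libraries each, lettered A to D. ShAsns-1 and shAsns-2 are hairpins named for Asns, the gene of asparagine synthetase, and shRenilla, named for a luciferase absent from mice, is the control. All cells were shRNA infected, 6TG selected and kept in DMEM to which non-essential amino acids were added, so the libraries describe cultured cells and not tissue. The labels do not say how many animals or isolates the cells came from, or whether the letters mark separate cultures.

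Sequencing depth ran from 8.48 M counts in tumor shAsns-2 A to 38 M counts in tumor shAsns-2 B. Asns went against a knockdown in the libraries labelled shAsns-1: it averaged 194 ± 18.2 CPM (counts scaled to a common library size, mean ± SD, n = 4 here and throughout) there in lung, against 63.6 ± 7.89 CPM in lung shRenilla, and 170 ± 17.1 CPM in tumor, against 82.8 ± 15.9 CPM in tumor shRenilla. EdgeR called both rises (log2 fold change 1.61 ± 0.16 SE, adjusted p = 2.62e-06 in lung, and 1.04 ± 0.16, adjusted p = 1.47e-05 in tumor). In tumor shAsns-2 it fell, to 36.8 ± 10.3 CPM (-1.18 ± 0.16, adjusted p = 0.00122). Fitting those groups alone gave an adjusted p of 0.0502, and the 14 alternatives spanned 2.86e-08 to 0.0502. In lung shAsns-2 it averaged 44.6 ± 6.51 CPM and was not called against lung shRenilla (-0.51 ± 0.16, adjusted p = 0.405). All 4 of those libraries still lay under all 4 of lung shRenilla, as for 1.93% of tested genes. Every direction involving shAsns-1 or shRenilla is therefore a direction between labels. A pair of libraries stood apart from their groups. In replicate B of lung shRenilla 41.3% of tested genes were at the top of the group and 42.5% at the bottom. In replicate D of lung shAsns-2 42.3% were at the top and 37.1% at the bottom. Results are also given without this pair.

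The promoters of these genes are unlike each other in base composition and in the simple motifs they hold. RefSeq promoter windows on GRCm38.p6, from 250 bases before to 50 bases after the start site, were at hand for 4 of the 5 genes, Angpt1 being the other. They are shown because the genes share a pattern of levels. Capitals mark the motifs found, each searched on both strands. They are matches of sequence at any place in the window, and binding was not measured. The motif TATAAA is the box at which TATA-binding protein sits, and ATTGG is the reverse complement of the box read by the factor NF-Y. The motif GGGCGG is the box that SP1 and its relatives read, which appears as its complement where it lies on the other strand. The motif ACCACA is the core recognised by RUNX factors, and CACGTG is the palindromic box of many helix-loop-helix factors. Spp1 is chr5:104434861-104435160 on the plus strand, Amigo2 chr15:97247238-97247537 on the minus strand, Trib2 chr12:15816736-15817035 on the minus strand and Casp1 chr9:5298267-5298566 on the plus strand.
Spp1: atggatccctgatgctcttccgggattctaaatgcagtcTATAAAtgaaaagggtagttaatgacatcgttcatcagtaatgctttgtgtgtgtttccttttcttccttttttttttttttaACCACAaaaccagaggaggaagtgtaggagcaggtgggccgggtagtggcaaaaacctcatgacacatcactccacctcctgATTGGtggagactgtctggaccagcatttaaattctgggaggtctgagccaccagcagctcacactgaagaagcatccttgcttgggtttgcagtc
Amigo2: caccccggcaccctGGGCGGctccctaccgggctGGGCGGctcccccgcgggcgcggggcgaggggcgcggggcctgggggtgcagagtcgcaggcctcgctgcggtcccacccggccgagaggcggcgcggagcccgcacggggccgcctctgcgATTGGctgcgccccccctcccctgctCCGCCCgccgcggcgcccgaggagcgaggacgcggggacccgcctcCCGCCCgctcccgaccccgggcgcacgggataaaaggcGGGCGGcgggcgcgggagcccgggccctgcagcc
Trib2: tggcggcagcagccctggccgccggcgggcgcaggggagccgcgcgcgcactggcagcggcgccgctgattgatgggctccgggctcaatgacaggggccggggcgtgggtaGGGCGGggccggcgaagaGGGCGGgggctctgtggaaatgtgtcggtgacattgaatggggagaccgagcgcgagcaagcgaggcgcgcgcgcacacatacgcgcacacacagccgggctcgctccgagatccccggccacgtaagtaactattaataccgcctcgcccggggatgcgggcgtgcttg
Casp1: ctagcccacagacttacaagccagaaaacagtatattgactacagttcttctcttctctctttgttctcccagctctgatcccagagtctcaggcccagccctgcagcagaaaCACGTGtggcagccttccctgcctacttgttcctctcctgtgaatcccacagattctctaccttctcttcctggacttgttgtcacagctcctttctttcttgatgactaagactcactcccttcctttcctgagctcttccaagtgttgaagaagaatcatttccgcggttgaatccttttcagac

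GC content was 45.3% for Spp1, 83.3% for Amigo2, 71% for Trib2 and 48% for Casp1. The Spp1 window held TATAAA at -211, ACCACA at -128 and ATTGG at -46 from the start site, and the Casp1 window CACGTG at -137. That of Amigo2 held 5 GC boxes and an ATTGG at -94, and that of Trib2 held 2 GC boxes. Of 32817 RefSeq promoters of this length, 13.6% held TATAAA, 37.4% ATTGG, 35.6% GGGCGG, 16.8% ACCACA and 7.15% CACGTG. The AP-1 site TGANTCA, present in 7.81% of all promoters, was in 0 of the 4 windows. No searched motif stood in more than 2 of the 4 windows.

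Spp1 was the more abundant of the secreted ligands per kilobase of exon, at 2211 RPKM (CPM per kilobase) in lung shAsns-1, where Angpt1 had 6.16 RPKM. Spp1 had 4187, 3302, 2678 and 4405 CPM in the lung libraries labelled shAsns-1, in the order A to D used throughout (3643 ± 801 CPM, mean ± SD). In lung shAsns-2 the values were 4021, 3766, 4396 and 3230 CPM (3853 ± 490 CPM). In lung shRenilla they were 5004, 7411, 4503 and 5566 CPM (5621 ± 1270 CPM). Each lung shRenilla library thus lay above each lung library of the other labels. Tumor libraries labelled shAsns-1 had 4233, 2387, 3912 and 2629 CPM of Spp1 (3290 ± 918 CPM). Tumor shAsns-2 had 1609, 1789, 1295 and 1490 CPM (1546 ± 207 CPM). Tumor shRenilla had 1552, 875, 809 and 1044 CPM (1070 ± 336 CPM). In tumor the libraries labelled shAsns-1 were all above the others and overlapped the lung libraries of that label, and tumor shAsns-2 overlapped tumor shRenilla through replicate A of the shRenilla label. The highest of the 24 libraries held 9.16 times the Spp1 of the lowest.

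Angpt1 fell into a high set of 4 groups and a low set of 2. The lung libraries labelled shAsns-1 had 30.8, 31.3, 31.2 and 34.9 CPM (32.1 ± 1.93 CPM). Lung shAsns-2 had 29.45, 23.9, 27.3 and 19.7 CPM (25.1 ± 4.28 CPM). Lung shRenilla had 31.0, 53.3, 31.3 and 36.7 CPM (38.1 ± 10.5 CPM), with replicate B the highest. All 4 lung shAsns-2 libraries lay under all 4 lung shRenilla libraries. In the tumor libraries labelled shAsns-1, Angpt1 had 22.2, 26.0, 38.3 and 27.9 CPM (28.6 ± 6.91 CPM). Its values in tumor shAsns-2 were 4.9, 7.02, 4.645 and 5.06 CPM (5.41 ± 1.09 CPM). Its values in tumor shRenilla were 7.27, 5.27, 4.54 and 7.22 CPM (6.08 ± 1.38 CPM). The tumor shAsns-2 and tumor shRenilla ranges overlapped almost wholly, and both lay under every other group.

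Amigo2, the adhesion protein, showed the widest range of the 5, with 26.8 times more in the highest than in the lowest library. In lung it had 37.05, 38.5, 37.1 and 39.96 CPM in the libraries labelled shAsns-1 (38.1 ± 1.39 CPM). It had 42.4, 35.7, 35.1 and 22.0 CPM in lung shAsns-2 (33.8 ± 8.53 CPM). It had 38.2, 68.8, 38.0 and 40.5 CPM in lung shRenilla (46.4 ± 15.0 CPM). The lung groups overlapped, and their spread came mostly from shAsns-2 D on the low side and shRenilla B on the high side. In tumor the libraries labelled shAsns-1 had 45.95, 53.45, 49.9 and 50.1 CPM (49.85 ± 3.07 CPM). Tumor shAsns-2 held 7.05, 9.05, 6.27 and 12.6 CPM (8.73 ± 2.80 CPM). Tumor shRenilla held 4.19, 2.57, 3.40 and 5.64 CPM (3.95 ± 1.31 CPM). The 3 tumor groups were separate from each other, in the order shAsns-1, shAsns-2, shRenilla, and the tumor libraries labelled shAsns-1 also lay above all 4 lung libraries of that label.

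Trib2, the pseudokinase, had the tumor groups in the same order as Amigo2, with the lung groups close together. Lung libraries labelled shAsns-1 had 26.9, 28.7, 31.7 and 27.1 CPM (28.6 ± 2.20 CPM). For lung shAsns-2 the values were 38.6, 37.4, 29.4 and 21.1 CPM (31.6 ± 8.13 CPM). For lung shRenilla they were 26.4, 41.1, 28.1 and 25.4 CPM (30.2 ± 7.31 CPM). No pair of lung groups was separate. Tumor libraries labelled shAsns-1 had 29.4, 34.7, 35.3 and 37.15 CPM (34.1 ± 3.32 CPM). Tumor shAsns-2 held 5.62, 8.37, 5.89 and 7.34 CPM (6.80 ± 1.29 CPM). Tumor shRenilla held 4.34, 3.49, 3.47 and 4.76 CPM (4.02 ± 0.642 CPM). As with Amigo2, each tumor shAsns-2 library exceeded each tumor shRenilla library.

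Casp1, the inflammasome protease, lay higher in lung than in tumor under every label. It had 30.7, 26.15, 28.1 and 40.5 CPM in the lung libraries labelled shAsns-1 (31.4 ± 6.39 CPM). Its lung shAsns-2 values were 19.4, 20.4, 24.1 and 15.0 CPM (19.7 ± 3.74 CPM). Its lung shRenilla values were 22.5, 42.2, 21.2 and 33.0 CPM (29.75 ± 9.86 CPM). Lung shAsns-2 was the lowest lung group but overlapped lung shRenilla. The tumor libraries labelled shAsns-1 had 19.8, 14.3, 21.6 and 14.4 CPM (17.5 ± 3.75 CPM). Its tumor shAsns-2 values were 1.91, 5.18, 3.54 and 2.88 CPM (3.38 ± 1.38 CPM), the first of them from 16 counted reads in the shallowest library. Its tumor shRenilla values were 4.79, 3.46, 2.67 and 4.13 CPM (3.76 ± 0.907 CPM). The last 2 groups overlapped, and all 8 of their libraries lay under all others.

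**Figure D1:**
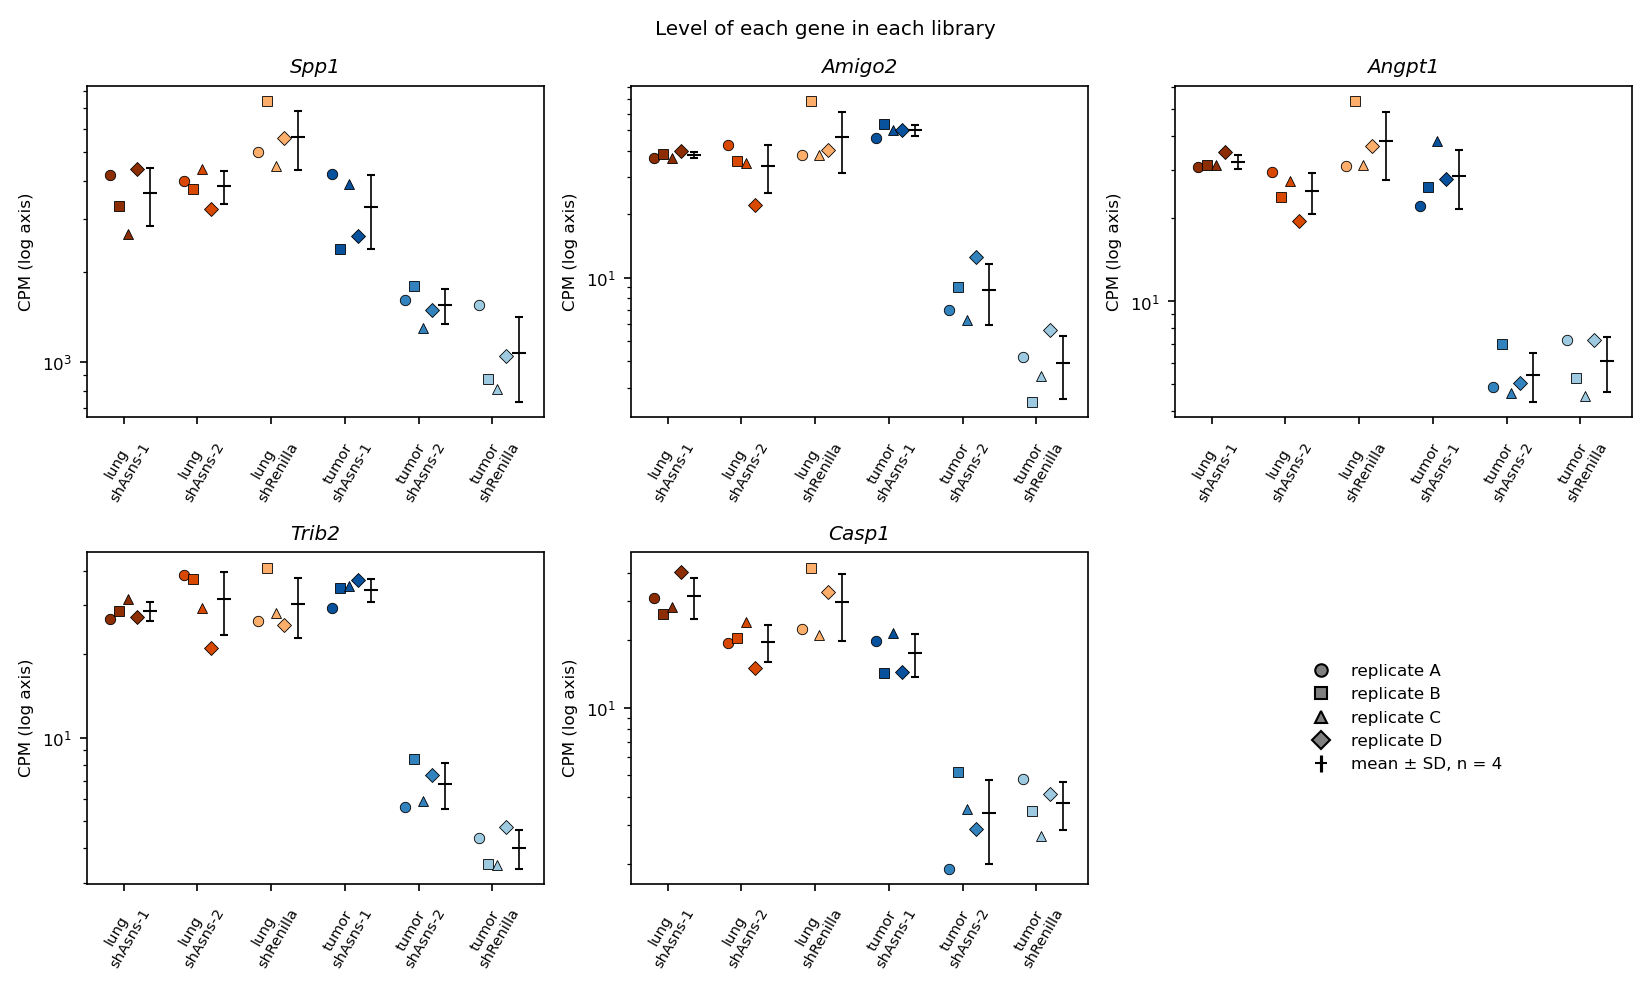
Level of each gene in each library, in CPM on a log axis, for the 6 groups. Points are libraries with a shape for each letter, and bars are the mean ± SD of 4 libraries. In each panel the tumor shAsns-2 and tumor shRenilla points lie lowest, with Amigo2 at 6.27 to 12.6 CPM and at 2.57 to 5.64 CPM.

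Ordered by group mean, a step that no library crossed lay in the same place for all 5 genes, above tumor shAsns-2 and tumor shRenilla. The genes were picked for this outline, and the share of all tested genes with such a step was not counted, so nothing is read from its shared place. Over that step the mean changed 2.13-fold for Spp1, 3.87-fold for Amigo2, 4.13-fold for Angpt1, 4.2-fold for Trib2 and 4.65-fold for Casp1. Above it, neighbouring groups overlapped for every gene except Spp1, whose top group, lung shRenilla, exceeded lung shAsns-2 by 1.46-fold. Below it, tumor shAsns-2 exceeded tumor shRenilla without overlap for Amigo2 (2.21-fold) and Trib2 (1.69-fold), while the 2 groups overlapped for Spp1, Angpt1 and Casp1. Per kilobase of merged GENCODE M21 exon, Spp1 averaged 3411 RPKM in lung shRenilla and 649 RPKM in tumor shRenilla. On that scale the other 4 genes averaged between 0.927 (Trib2, tumor shRenilla) and 21.0 RPKM (Casp1, lung shAsns-1).

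Set against tumor shRenilla, lung shRenilla had more of every gene. The log2 fold changes were 2.39 ± 0.22 (SE) for Spp1, 3.55 ± 0.24 for Amigo2, 2.65 ± 0.20 for Angpt1, 2.91 ± 0.19 for Trib2 and 2.99 ± 0.25 for Casp1. For 5 of 5 genes all 4 lung libraries exceeded all 4 tumor libraries, which 12.2% of tested genes also did, while 10.1% were lower without overlap. The genes were chosen on this contrast, so nothing is read from that count. Without the pair of libraries that stood apart the values were 2.23, 3.30, 2.44, 2.73 and 2.77 in the same order. In RNA from bulk cultures, fewer cells of a kind and less RNA per cell cannot be told apart.

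Under shAsns-2, lung libraries were again higher than tumor libraries for all 5 genes without overlap, as were 8.54% of tested genes, with 9.66% lower without overlap. The log2 fold changes were 1.32 ± 0.21 for Spp1, 1.94 ± 0.23 for Amigo2, 2.19 ± 0.20 for Angpt1, 2.19 ± 0.18 for Trib2 and 2.45 ± 0.25 for Casp1. Without the same pair they were 1.39, 2.10, 2.28, 2.34 and 2.54.

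Between the libraries labelled shAsns-1 lung and tumor lay close for 4 of the genes. The lung-against-tumor log2 fold change was 0.15 ± 0.20 for Spp1, 0.16 ± 0.18 for Angpt1 and -0.25 ± 0.17 for Trib2, with overlapping groups. Amigo2 was lower in lung (-0.39 ± 0.21), with all 4 lung libraries under all 4 tumor libraries, as for 14.5% of tested genes. Casp1 was higher in lung (0.84 ± 0.22), with all 4 lung libraries over all 4 tumor libraries, as for 15.5% of tested genes. Whether the site difference itself varied between labels was not tested, since the genes were picked on these contrasts.

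Within tumor, the libraries labelled shAsns-1 exceeded shRenilla without overlap for all 5 genes, as did 18.6% of tested genes. The log2 fold change was 1.62 ± 0.21 for Spp1, 3.66 ± 0.24 for Amigo2, 2.24 ± 0.20 for Angpt1, 3.09 ± 0.19 for Trib2 and 2.22 ± 0.25 for Casp1. Another 18.6% of tested genes were lower without overlap. These values and those of lung against tumor under shRenilla share the tumor shRenilla libraries. Tumor shAsns-2 against shRenilla, with Asns lower, gave 0.53 ± 0.21 for Spp1, 1.15 ± 0.24 for Amigo2, -0.14 ± 0.21 for Angpt1, 0.78 ± 0.19 for Trib2 and -0.06 ± 0.26 for Casp1. Amigo2 and Trib2 were the 2 of 5 genes without overlap there, beside 1.87% of tested genes that were higher without overlap and 1.46% that were lower.

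Within lung the differences between labels were small. With shAsns-1 the log2 fold change against shRenilla was -0.63 ± 0.21 for Spp1, with no overlap, as for 6.01% of tested genes (4.85% were higher without overlap), and between -0.28 and 0.07 for the other 4, with overlap. With shAsns-2 it was -0.54 ± 0.21 for Spp1 and -0.60 ± 0.18 for Angpt1, both with no overlap, as for 1.93% of tested genes (1.24% were higher without overlap). Amigo2 (-0.46 ± 0.21), Casp1 (-0.59 ± 0.22) and Trib2 (0.06 ± 0.17) overlapped there. Without the pair of libraries that stood apart, Spp1 was at -0.46 and -0.31 under shAsns-1 and shAsns-2, and under shAsns-2 Angpt1 was at -0.30, Amigo2 at -0.04, Casp1 at -0.27 and Trib2 at 0.40. Under shAsns-1 the others were then at -0.03 (Amigo2), -0.04 (Angpt1), 0.11 (Trib2) and 0.29 (Casp1).

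**Figure D2:**
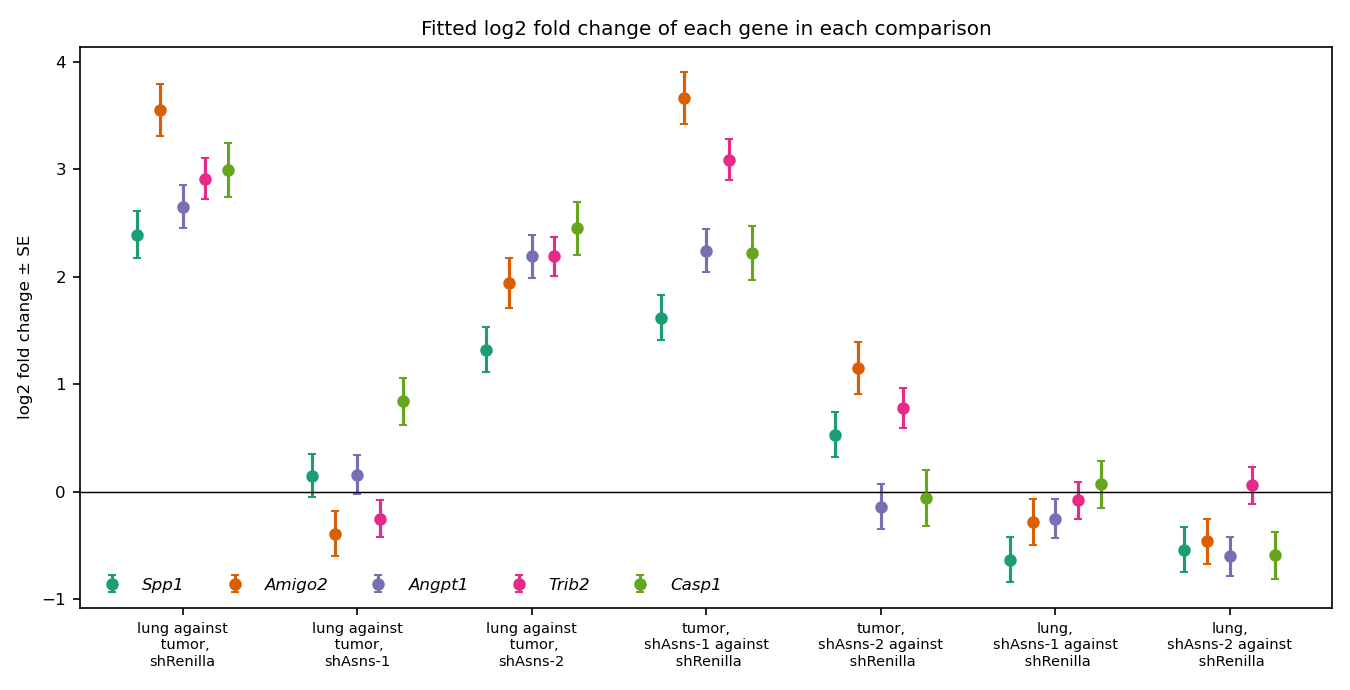
Fitted log2 fold change ± SE of each gene in 7 comparisons, with a colour for each gene. Lung against tumor is at 2.39 to 3.55 under shRenilla, -0.39 to 0.84 under shAsns-1 and 1.32 to 2.45 under shAsns-2, and the comparisons of hairpin labels within lung lie between -0.63 and 0.07.

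The libraries of a group moved the 5 genes together in places. Lung shRenilla B was the highest of its group for 5 of 5 genes, and lung shAsns-2 D the lowest of its group for 5 of 5. Of all tested genes, 41.3% and 37.1% had the same libraries at the same end. Lung shAsns-1 D was highest for 4 of 5 genes, where 21.2% of tested genes were highest. Tumor shAsns-2 B was highest for 4 of 5 (28.3% of tested genes), and tumor shRenilla C lowest for 4 of 5 (29.1% of tested genes).

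**Figure D3:**
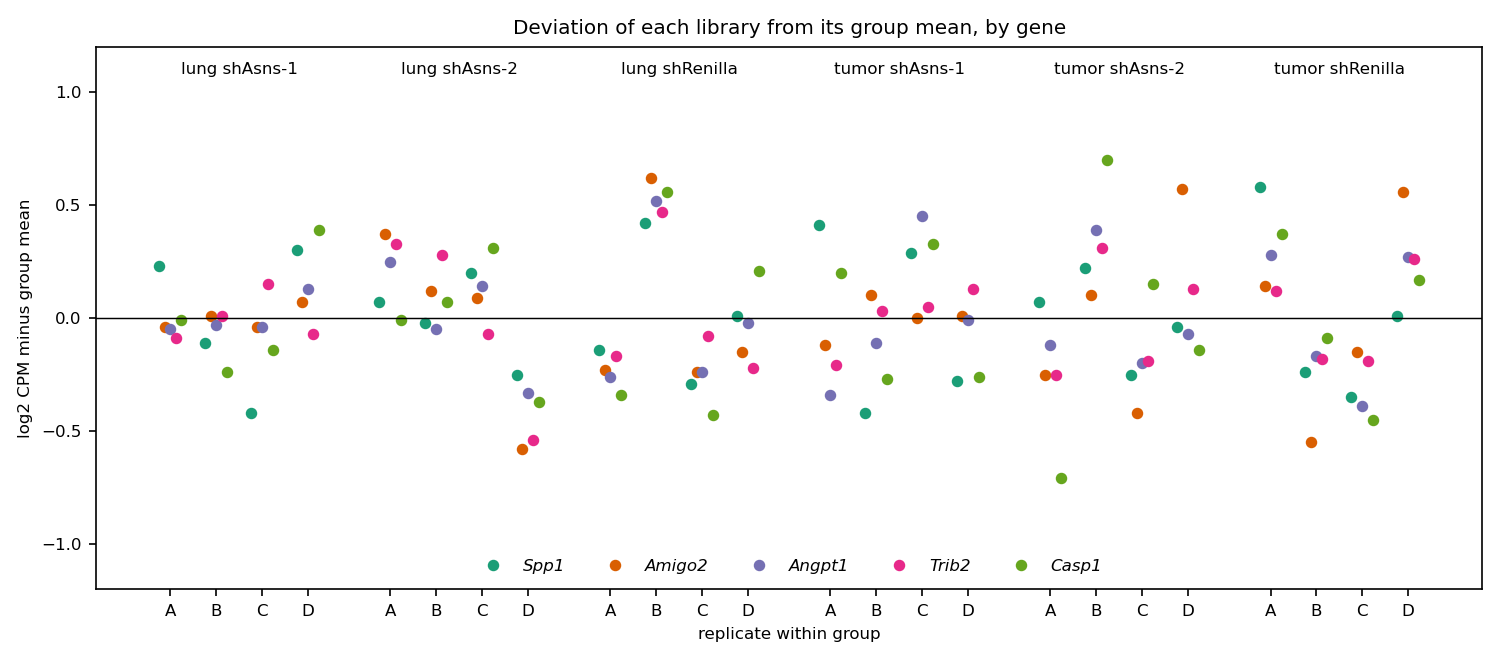
Deviation of each library from its group mean in log2 CPM, for the 4 letters within each group, with a colour for each gene. All 5 points of lung shRenilla B lie above the line at 0 and all 5 of lung shAsns-2 D below it.

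The genes whose levels ran closest to these over the 24 libraries were ranked by mean absolute difference of centred log2 CPM, among 8011 candidates. For Spp1 they were Mgst1, a microsomal glutathione transferase (0.18), Hhip, a hedgehog-binding protein (0.28), and Dixdc1 (0.29), where the median candidate lay at 0.77. For Amigo2 they were Trib2 (0.25), the epithelial cytokine gene Tslp (0.34) and Angpt1 (0.35), with a median candidate of 1.27. For Angpt1 they were Mmp3, the stromelysin gene (0.26), Casp1 (0.28) and the semaphorin gene Sema6d (0.28), with a median candidate of 1.07. Trib2 was nearest to Sema6d (0.23), to Phex, an endopeptidase of phosphate balance (0.25), and to Amigo2 (0.25), against a median of 1.13. Casp1 was nearest to Angpt1 (0.28), Mmp3 (0.28) and the anthrax toxin receptor gene Antxr1 (0.35), against a median of 1.22. Amigo2, Angpt1, Trib2 and Casp1 each had another of the 5 among its nearest 3, and Spp1 had none. The 5 were picked for a shared outline of these same levels, so nothing is read from their nearness. Mgst1 averaged 69.7 CPM over the lung libraries, 57.9 CPM in tumor shAsns-1, 24.9 CPM in tumor shAsns-2 and 20.5 CPM in tumor shRenilla. Tslp averaged 438 CPM over the lung libraries, 480 CPM in tumor shAsns-1, 56.7 CPM in tumor shAsns-2 and 46.0 CPM in tumor shRenilla.

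The pathway lists were chosen with earlier results of these data known, so the shares here and for single lists below are a description only. Further genes of the same pathways, 65 in 5 lists of which 47 were tested, moved in part with the 5 genes. EdgeR called 21 of them in lung against tumor under shRenilla (15 higher, 6 lower), 44.7% of the list beside 21.8% of all tested genes (12% higher, 9.82% lower). Under shAsns-1 it called 7 (7 higher), 14.9% beside 8.55% (6% higher, 2.54% lower). That count and its direction varied with the libraries fitted: without the pair that stood apart 12 were called higher and 3 lower, and with these groups fitted alone 11 higher and 6 lower. Under shAsns-2 it called 19 (11 higher, 8 lower), 40.4% beside 20.9% (10.1% higher, 10.9% lower). In tumor libraries labelled shAsns-1 against shRenilla it called 25 (16 higher, 9 lower), 53.2% beside 33.9% (16.2% higher, 17.7% lower). In tumor shAsns-2 against shRenilla it called 1, higher, beside 0.0634% of all genes (0.0396% higher, 0.0238% lower). In lung it called 0 with either label, beside 0.206% of all genes with shAsns-1 (0.0713% higher, 0.135% lower) and 0% with shAsns-2. An unadjusted p under 0.05 was reached there by 7 and 9 of the 47, and DESeq2 called 0 in both. The median log2 fold change over the 47 genes lay between -0.11 and 0.17 in the 7 comparisons, beside -0.01 to 0.03 over all tested genes. Single lists had medians from -0.31 (osteopontin, tumor shAsns-1 against shRenilla) to 0.46 (inflammasome, lung against tumor under shRenilla).

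Of the osteopontin pathway 12 of 18 genes were tested, and they moved in both directions. The called counts were 7 in lung against tumor under shRenilla (5 higher, 2 lower), 4 under shAsns-1 (4 higher), 6 under shAsns-2 (2 higher, 4 lower) and 9 in tumor shAsns-1 against shRenilla (4 higher, 5 lower). The shares were 58.3%, 33.3%, 50% and 75%, beside 21.8%, 8.55%, 20.9% and 33.9% of all tested genes. Among the receptors, the hyaluronan and osteopontin receptor gene Cd44 fell in tumor shAsns-1 (695 ± 32.8 CPM, against 1000 ± 145 CPM in tumor shRenilla, log2 fold change -0.52 ± 0.14, adjusted p = 0.00525). It also fell in lung shAsns-2 (687 ± 149 CPM, against 1102 ± 142 CPM in tumor shAsns-2, -0.68 ± 0.14, adjusted p = 0.0009). Itgav, the alpha-v integrin chain that binds osteopontin, was not called in any of the 7 comparisons, with 0.04 ± 0.17 in lung against tumor under shRenilla. There replicate B of lung had 860.2 CPM, and the other 3 lung libraries, at 372.8 to 425.3 CPM, all lay under the tumor shRenilla libraries, at 456.2 to 559.4 CPM. Itgb6, an epithelial partner of that chain, ran opposite to Spp1: it fell in lung shRenilla (3.51 ± 0.535 CPM, against 19.0 ± 2.80 CPM in tumor shRenilla, -2.43 ± 0.20, adjusted p = 1.23e-09) and in tumor shAsns-1 (2.57 ± 0.368 CPM, -2.88 ± 0.21, adjusted p = 7.35e-11). Itgb3, another partner, averaged 1.60 to 3.18 CPM in the 6 groups. It rose in lung under shRenilla (0.65 ± 0.19, adjusted p = 0.0168) and under shAsns-1 (0.97 ± 0.20, adjusted p = 0.0031). The first had an adjusted p of 0.0652 without tumor shRenilla A and 0.00897 at the lowest of all alternatives. Itgb3 was not called in lung under shAsns-2 (0.07 ± 0.20) or in tumor shAsns-1 against shRenilla (-0.31 ± 0.20). Itgb1, of the same list, averaged 582 to 1179 CPM. It fell in lung under shRenilla (-0.52 ± 0.16, adjusted p = 0.0219) and shAsns-2 (-0.66 ± 0.16, adjusted p = 0.00444) and in tumor shAsns-1 against shRenilla (-1.02 ± 0.16, adjusted p = 3.1e-05).

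The proteases that cut osteopontin split as well. Mmp3 rose with Spp1, to 668 ± 140 CPM in lung shRenilla, against 87.1 ± 24.2 CPM in tumor shRenilla (2.94 ± 0.23, adjusted p = 3.5e-10). It stood at 509 ± 169 CPM in tumor shAsns-1 (2.55 ± 0.22 against tumor shRenilla, adjusted p = 2.72e-09) and rose in lung shAsns-2 against tumor shAsns-2 (2.40 ± 0.22, adjusted p = 1.25e-08). Mmp9 went the other way in tumor shAsns-1, at 10.7 ± 1.65 CPM, against 34.7 ± 8.34 CPM in tumor shRenilla (-1.69 ± 0.25, adjusted p = 1.05e-05). It rose in lung under shAsns-1 (1.10 ± 0.25, adjusted p = 0.00702). Its fall in lung under shAsns-2 (-0.74 ± 0.24, adjusted p = 0.0324) was lost in 6 of 14 alternatives, without tumor shAsns-2 D and without lung shAsns-2 A, B or C among them (the adjusted p spanned 1.41e-05 to 0.153).

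Spp1 lies at the end of a row of genes for acidic bone and dentin matrix proteins on chromosome 5 (GRCm38). Dmp1 is at 104202613 to 104214102, Ibsp at 104299171 to 104311469 and Spp1 at 104435118 to 104441050, all on the plus strand. Dmp1 rose in lung shRenilla (4.41 ± 0.740 CPM, against 0.580 ± 0.171 CPM in tumor shRenilla, 2.92 ± 0.28, adjusted p = 1.01e-08) and in tumor shAsns-1 (4.81 ± 0.446 CPM, 3.04 ± 0.28, adjusted p = 4.62e-09). In tumor shAsns-2 it was the 1 pathway gene called against shRenilla (1.71 ± 0.866 CPM, 1.56 ± 0.30, adjusted p = 0.0408). That call was lost in 8 of 14 alternatives, 6 of which left out a single library, namely A, B or D of either tumor label (the adjusted p spanned 0.00058 to 0.3). Ibsp, for bone sialoprotein, averaged under 1.5 CPM in every group. It rose in lung shRenilla (0.947 ± 0.440 CPM, against 0.0785 ± 0.0408 CPM in tumor shRenilla, 3.53 ± 0.72, adjusted p = 0.000721). Its call in lung under shAsns-1 (1.89 ± 0.54, adjusted p = 0.0275) was lost in 7 of 14 alternatives, including each fit with a tumor shAsns-1 library left out. Without lung shAsns-1 D the value was 0.60 (adjusted p = 0.408, the highest, where 0.0146 was the lowest). Its call in tumor shAsns-1 (2.16 ± 0.82, adjusted p = 0.0433) was lost in 10 of 13 alternatives, each tumor library of both labels left out in turn among them (adjusted p = 0.0109 to 0.1 over all 13). The other genes of the row, Dspp and Mepe, had at most 3 counts in any library.

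The angiopoietin pathway had 6 of 9 genes tested. Tek, the TIE2 receptor gene, was at a mean of 0.126 to 0.202 CPM in the 6 groups and was not tested. Angpt2, the partial antagonist of angiopoietin-1, rose with Angpt1 in lung shRenilla (7.87 ± 0.810 CPM, against 4.92 ± 0.753 CPM in tumor shRenilla, 0.68 ± 0.14, adjusted p = 0.000622), in lung shAsns-2 against tumor shAsns-2 (0.85 ± 0.14, adjusted p = 6.46e-05) and in tumor shAsns-1 against shRenilla (0.50 ± 0.14, adjusted p = 0.00566). Vegfc, the lymphatic growth factor gene, fell in the same comparisons, with log2 fold changes of -1.18 ± 0.18 (adjusted p = 2.61e-05), -1.32 ± 0.19 (adjusted p = 9.32e-06) and -1.67 ± 0.19 (adjusted p = 1.52e-07). Tie1, the receptor gene related to Tek, rose in tumor shAsns-1 against shRenilla (4.97 ± 0.438 CPM and 2.10 ± 0.577 CPM, 1.24 ± 0.25, adjusted p = 0.000348), as did Vegfb (0.69 ± 0.17, adjusted p = 0.00295).

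Of the 6 genes of its list, all tested, 1 was called in 1 comparison: its relative Amigo1 was lower in tumor shAsns-1 (2.15 ± 0.113 CPM, against 2.88 ± 0.353 CPM in tumor shRenilla, -0.43 ± 0.17, adjusted p = 0.0476). That call was lost in 11 of 14 alternatives, including 7 of the 8 fits that left out 1 library, all except the one without tumor shRenilla D (adjusted p = 0.0141 to 0.136 over all 14). Pdpk1, whose product binds AMIGO2 in endothelial cells, had 0.18 ± 0.11 in lung against tumor under shRenilla (adjusted p = 0.264).

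Of the Tribbles pathway 9 of 11 genes were tested. The family members Trib1 and Trib3 were not called in any of the 7 comparisons, with 0.18 ± 0.13 and 0.16 ± 0.20 in lung against tumor under shRenilla. Cebpb, which encodes a C/EBP protein of the kind that TRIB2 and COP1 degrade, rose with Trib2 in lung shRenilla (36.01 ± 3.70 CPM, against 20.7 ± 3.44 CPM in tumor shRenilla, 0.80 ± 0.14, adjusted p = 0.000129) and in tumor shAsns-1 (43.0 ± 2.98 CPM, 1.06 ± 0.14, adjusted p = 2.36e-06). The COP1 gene, Rfwd2, rose in tumor shAsns-1 (0.39 ± 0.12, adjusted p = 0.0112). Map2k1, for the kinase MEK1, rose in lung shRenilla (149 ± 21.5 CPM, against 89.4 ± 5.99 CPM in tumor shRenilla, 0.74 ± 0.10, adjusted p = 5.61e-06), in lung shAsns-2 (0.41 ± 0.10, adjusted p = 0.00457) and in tumor shAsns-1 (0.57 ± 0.10, adjusted p = 0.000111). Map2k7 fell in lung shRenilla (-0.52 ± 0.15, adjusted p = 0.0162, but adjusted p = 0.0917 without tumor shRenilla C and 0.0076 at the lowest of all alternatives). Foxo1, for a transcription factor of the FOXO family that TRIB2 represses in human melanoma cells, fell in tumor shAsns-1 (-0.34 ± 0.09, adjusted p = 0.00627, and 0.00103 to 0.0517 over all alternatives). It also fell in lung under shAsns-2 (-0.31 ± 0.09, adjusted p = 0.0184), a call lost in 6 of 14 alternatives, without tumor shAsns-2 A or D and without lung shAsns-2 A or B among them (adjusted p = 0.00666 to 0.133 over all 14).

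The inflammasome pathway had 14 of 21 genes tested, with 9 called in lung against tumor under shRenilla (7 higher, 2 lower), 3 under shAsns-1 (3 higher), 9 under shAsns-2 (7 higher, 2 lower) and 7 in tumor shAsns-1 against shRenilla (6 higher, 1 lower). These were 64.3%, 21.4%, 64.3% and 50% of its tested genes, beside 21.8%, 8.55%, 20.9% and 33.9% of all tested genes. Casp1 opens a run of caspase genes on the plus strand of chromosome 9 (GRCm38, 5298517 to 5307265), followed by Casp4 (5308828 to 5336783) and Casp12 (5345430 to 5373032). Casp4, the caspase-11 gene of the mouse, rose in all 3 lung-against-tumor comparisons, by 1.45 ± 0.21 (shRenilla, adjusted p = 9.58e-06), 0.95 ± 0.20 (shAsns-1, adjusted p = 0.00358) and 1.19 ± 0.22 (shAsns-2, adjusted p = 0.000247) on the log2 scale, and in tumor shAsns-1 against shRenilla (0.86 ± 0.21, adjusted p = 0.00257). Casp12 rose in lung shRenilla (20.2 ± 4.35 CPM, against 6.51 ± 1.01 CPM in tumor shRenilla, 1.63 ± 0.21, adjusted p = 1.78e-06), in lung shAsns-2 (1.06 ± 0.21, adjusted p = 0.000654) and in tumor shAsns-1 (1.32 ± 0.21, adjusted p = 2.53e-05). The 3 caspases are relatives in sequence, and reads shared between them were not examined.

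Among the substrates of caspase-1, Il18 was called higher and Il1b was not called. Il18 reached 7.20 ± 0.889 CPM in lung shRenilla, against 2.29 ± 0.195 CPM in tumor shRenilla (1.65 ± 0.20, adjusted p = 6.83e-07), and 7.47 ± 0.741 CPM in tumor shAsns-1 (1.70 ± 0.20, adjusted p = 3.24e-07). It also rose in lung shAsns-2 against tumor shAsns-2 (1.03 ± 0.20, adjusted p = 0.00045). Il1b averaged 0.152 to 0.313 CPM in the 6 groups and was not called in any comparison. Gsdmd, for the pore-forming gasdermin D, was called higher in lung under shRenilla (0.45 ± 0.16, adjusted p = 0.0453), a call lost in 7 of 14 alternatives, without tumor shRenilla A or C and without lung shRenilla C or D among them (adjusted p = 0.00935 to 0.209 over all 14). Il1a, for a cytokine of the same family that caspase-1 does not cut, fell in lung shRenilla (-1.32 ± 0.21, adjusted p = 3.08e-05), in lung shAsns-2 (-1.84 ± 0.22, adjusted p = 7.48e-07) and in tumor shAsns-1 (1.68 ± 0.556 CPM, against 10.3 ± 2.66 CPM in tumor shRenilla, -2.60 ± 0.22, adjusted p = 1.81e-09). Between the libraries labelled shAsns-1 it rose in lung (1.06 ± 0.23, adjusted p = 0.00484).

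Upstream of the protease, the adaptor gene Pycard was at 0.226 to 0.592 CPM, from 3 to 36 counts in a library, and was not called in any comparison. The sensor genes Nlrp3 and Aim2 had at most 3 counts in any library, and Nlrc4 and Mefv at most 6 and 8. None of these was tested. The sensor gene Nlrp1a was tested and called lower in lung against tumor under shRenilla (-1.12 ± 0.37, adjusted p = 0.0293), opposite to Casp1. It averaged 0.170 ± 0.0544 CPM there in lung and 0.372 ± 0.102 CPM in tumor, from 3 to 13 counts in a library. In no other comparison was Nlrp1a called. Txnip, for a binder of thioredoxin and NLRP3, rose in lung under shRenilla (0.53 ± 0.11, adjusted p = 0.000921) and shAsns-1 (0.52 ± 0.11, adjusted p = 0.00448). Under shAsns-2 (0.36 ± 0.11, adjusted p = 0.0234) the call was lost in 3 of 14 alternatives, without tumor shAsns-2 A and without lung shAsns-2 A among them (adjusted p = 0.00613 to 0.109 over all 14).

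**Figure D4:**
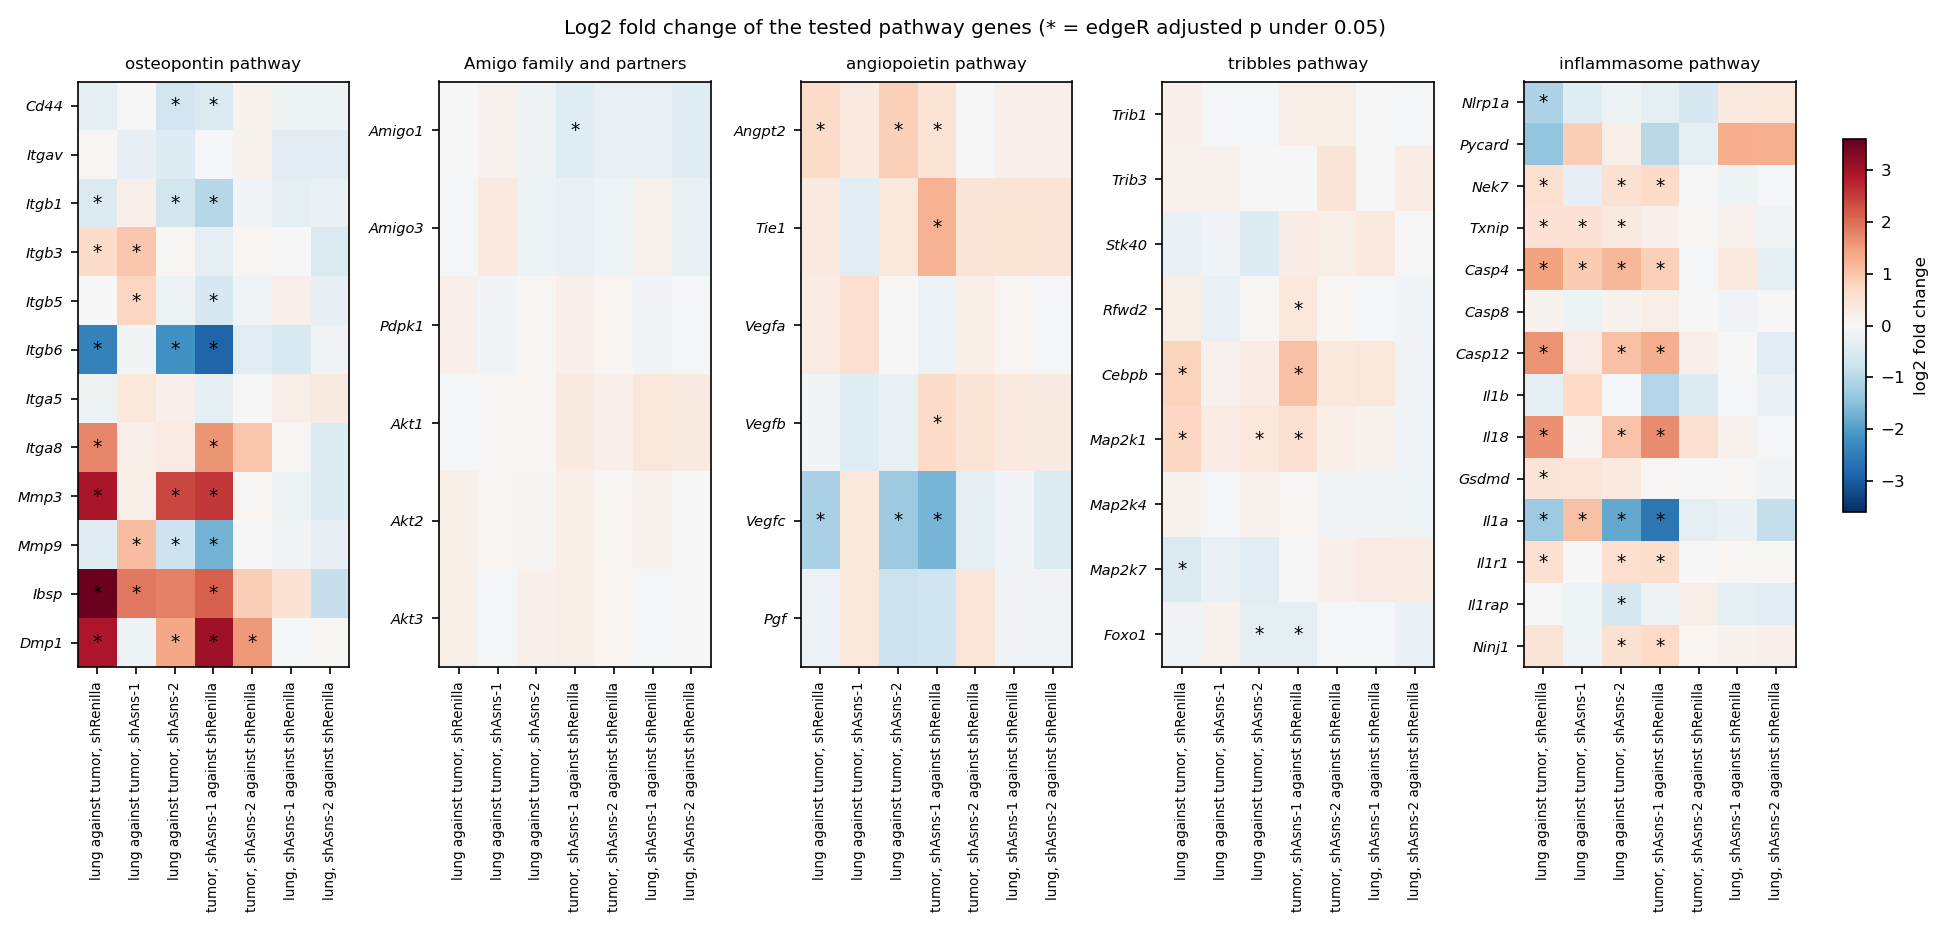
Log2 fold change of the 47 tested pathway genes (rows) in 7 comparisons (columns), red for higher and blue for lower, with a star for an edgeR adjusted p under 0.05. The stars lie mostly in the columns for lung against tumor under shRenilla (21) and shAsns-2 (19) and for tumor shAsns-1 against shRenilla (25), with 1 in tumor shAsns-2 against shRenilla and 0 in both lung columns.

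Some of the genes next to these on the chromosome were called in part of the comparisons. The 10 nearest tested neighbours were taken, 1 on each side of each gene. In lung against tumor under shRenilla 4 were called higher and 0 lower, where 21.8% of tested genes were called (12% higher, 9.82% lower). Those 4 were Ibsp, Casp4, Oxr1 (0.47 ± 0.15, adjusted p = 0.021) and Msantd4 (0.37 ± 0.13, adjusted p = 0.0374), and the last pair lay 564 and 912 kb from Angpt1 and Casp1. Pkd2, 18.4 kb beyond Spp1 on its other side, was not called in any comparison. In tumor shAsns-1 against shRenilla 4 neighbours were called higher (Ibsp, Casp4, Oxr1 and Lpin1) and 2 lower (Rpap3, -0.48, and Nbas, -0.78). There 33.9% of tested genes were called (16.2% higher, 17.7% lower). In lung against tumor under shAsns-1, 2 were called higher (Ibsp and Casp4) and 0 lower, beside 6% and 2.54% of tested genes. Under shAsns-2, 1 was called higher (Casp4) and 0 lower, beside 10.1% and 10.9%. In the other comparisons 0 of the 10 were called. Amigo2 (chromosome 15, 97244125 to 97247287, minus strand) lies inside Pced1b on the opposite strand. Reads of these cannot be told apart where they overlap without a strand setting, which the labels do not state. Pced1b held a mean of 1.04 to 2.19 CPM in the 6 groups, and reads shared with Amigo2 were not examined. Angpt1 (chromosome 15, 42424723 to 42676977, minus strand) overlaps the antisense gene Gm17473, and Trib2 (chromosome 12, 15791727 to 15816922, minus strand) overlaps Mir6387. No values for either were used here.

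Markers of other cell types were mostly low, and some moved with these genes. The lung epithelial markers Sftpc, Sftpb, Sftpa1, Scgb1a1 and Ager summed to 0 to 0.253 CPM over all 24 libraries. Of 11 macrophage markers, a cell type known for Spp1 and Casp1, 4 were tested, and the sum was 17.8 to 28.7 CPM in lung shAsns-1, 16.5 to 19.6 CPM in lung shAsns-2 and 20.3 to 25.1 CPM in lung shRenilla. In tumor it was 11.2 to 15 CPM in shAsns-1, 14.9 to 16.4 CPM in shAsns-2 and 16.3 to 20.6 CPM in shRenilla, and tumor shAsns-1 had the lowest sum. Cd14 gave most of the sum, at 9.69 to 20.2 CPM, and C1qa, C1qb and Tyrobp were at 0 in 17, 18 and 15 libraries and never above 0.309 CPM. EdgeR called 1 of the 4 tested markers higher in lung against tumor under shRenilla, 2 under shAsns-1 and 1 under shAsns-2. Of all tested genes, 12%, 6% and 10.1% were called higher there. In tumor shAsns-1 against shRenilla 2 of the 4 were called lower, beside 17.7% of all tested genes. Lyz2, for lysozyme, rose in all 3 lung-against-tumor comparisons, by 2.23 ± 0.48 (shRenilla, adjusted p = 0.00132), 3.53 ± 0.45 (shAsns-1, adjusted p = 2.6e-05) and 2.29 ± 0.54 (shAsns-2, adjusted p = 0.00284) on the log2 scale. Its level was 0.898 to 7.84 CPM in the 12 lung libraries and 0.0833 to 0.676 CPM in the 12 tumor libraries. Cd14 rose in lung under shAsns-1 (0.56 ± 0.12, adjusted p = 0.00386) and fell in tumor shAsns-1 against shRenilla (-0.43 ± 0.12, adjusted p = 0.00654), where Lyz2 was not called (0.13 ± 0.58) and the 5 genes were higher. Endothelial markers summed to 2.21 to 5.48 CPM.

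The 8 fibroblast and mural markers, a class known for Angpt1, summed to 34.4 to 69.9 CPM in lung shAsns-1, 24 to 27.1 CPM in lung shAsns-2 and 26.4 to 51.3 CPM in lung shRenilla. In tumor the sum was 24 to 32.4 CPM in shAsns-1, 16.2 to 20.9 CPM in shAsns-2 and 15.6 to 18.1 CPM in shRenilla, with every tumor shAsns-2 and tumor shRenilla sum under every other. Pdgfra gave most of it (14.5 to 48.1 CPM), and Col1a1 was at 0 in 8 and Pdgfrb in 12 libraries. Of the 4 tested markers, 2 were called higher in lung against tumor under shRenilla, 3 under shAsns-1 and 1 under shAsns-2. In tumor shAsns-1 against shRenilla 1 was called higher. The shares of all tested genes called higher in these comparisons were 12%, 6%, 10.1% and 16.2%. Pdgfra rose in lung under shRenilla (1.05 ± 0.15, adjusted p = 1.25e-05) and shAsns-2 (0.46 ± 0.16, adjusted p = 0.036) and in tumor shAsns-1 (0.79 ± 0.15, adjusted p = 0.000287). Dcn, for decorin, rose in lung under shRenilla (2.18 ± 0.56, adjusted p = 0.00576) and shAsns-1 (2.54 ± 0.48, adjusted p = 0.00149). The collagen genes Col3a1 (6.59 ± 1.03, adjusted p = 0.000271) and Col1a2 (2.47 ± 0.59, adjusted p = 0.0104) rose in lung under shAsns-1. These lung shAsns-1 libraries differed widely. Col3a1 spanned 0.311 to 8.53 CPM in them and had at most 2 counts in any tumor library. Dcn averaged 3.81 ± 3.27 CPM in them, against 0.645 ± 0.0358 CPM in tumor shAsns-1. Col1a2 averaged 3.19 ± 3.6 CPM, against 0.546 ± 0.586 CPM, and the groups overlapped. The 7 carcinoma epithelial markers had sums of 425 to 478 CPM in lung shAsns-1, 384 to 787 CPM in lung shAsns-2 and 428 to 600 CPM in lung shRenilla. In tumor they summed to 455 to 611 CPM in shAsns-1, 910 to 1050 CPM in shAsns-2 and 745 to 898 CPM in shRenilla, so that lung shAsns-2 and tumor shRenilla overlapped. EdgeR called 4 of the 7 lower in lung against tumor under shRenilla, 3 under shAsns-1 and 4 under shAsns-2. It called 5 lower in tumor shAsns-1 against shRenilla, and none of the 7 higher in these 4 comparisons. Of all tested genes, 9.82%, 2.54%, 10.9% and 17.7% were called lower in them. Epcam, Cdh1 and Krt7 were among the called markers each time. Krt8 and Krt18 were not called in any of the 4 (0.07 ± 0.15 and 0.33 ± 0.19 in lung against tumor under shRenilla). All 7 were detected in every library. The part of these markers in the levels of the 5 genes was not tested.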

How the data were processed

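The 24 libraries of 4T1-T cells, 4 in each of 6 groups, were measured by RNA sequencing. Per the labels, total RNA was taken with Trizol, and the NuGEN Ovation RNAseq V2 system made the libraries. The submitters' processing notes name Bowtie2, HTSeq and the build mm10. Versions, annotation and strand setting are not given in the sources used here. Raw counts for each gene symbol are what the authors deposited, and they entered the tests unchanged.

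Tests used the quasi-likelihood method of edgeR 4.0.16 (R 4.3.3), with robust dispersion, TMM scaling and filterByExpr, over all 24 libraries with 1 mean per group. Calls were made at a Benjamini-Hochberg adjusted p under 0.05 over 12625 genes. CPM use TMM-scaled library sizes. A standard error is the size of the log2 fold change divided by the root of its F statistic. The 5 genes got no p, as they were picked on these contrasts. The genes, the lists and their named members (some fixed, and up to 3 called genes of largest fold change per list and comparison) were chosen with earlier results of these data known. Likeness used log2 CPM with a prior count of 2, among tested genes of mean log2 CPM of at least 3. Positions and exon lengths are from GENCODE M21, and promoters from RefSeq.

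Between libraries of a group, chi-square per degree of freedom was at least 4.74, so none was a duplicate. The labels do not say that replicates are separate cultures, so the p-values speak only of the spread among these libraries, and that spread may be technical. The alternatives tried were edgeR with the size factors of DESeq2, the Wald test of DESeq2 1.42.0, no filter, only the compared groups, the replicate letter in the model, leaving out the pair of libraries that stood apart (replicate B of lung shRenilla, replicate D of lung shAsns-2), and leaving out each library in turn. The model was also run on counts simulated from its own fitted means and dispersions. Such counts hold no libraries that stand apart and no technical replicates, so nothing about these data is read from that run.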

Additional observations from a re-analysis of the deposited data

Results flagged for a closer look

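Single libraries far from the other 3 of their group were found in 10 of 204 gene-by-group sets, over 34 genes. Chance would mark about 1 in 20 such sets if they were independent. The 34 genes share the same 24 libraries, so this share cannot be weighed against that rate. Amigo2, Dmp1, Itgav, Rfwd2, Casp12 and Mmp9 were each marked in a library of the pair that stood apart. Of the 30 sets of Spp1, Angpt1, Amigo2, Trib2 and Casp1, 2 were marked. Amigo2 had 68.8 CPM in lung shRenilla B, where the other 3 libraries had 38.0 to 40.5 CPM. Angpt1 had 34.9 CPM in lung shAsns-1 D, where the others had 30.8 to 31.3 CPM.

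Of the pathway genes, 3 stood out in lung shRenilla B: Dmp1 at 5.52 CPM, Itgav at 860.2 CPM and Rfwd2 at 75.8 CPM, each above the other libraries. In lung shAsns-2 D, Casp12 was low at 9.91 CPM and Mmp9 high at 38.0 CPM. Ibsp had 3.90 CPM in lung shAsns-1 D, where the others had 0.506 to 0.685 CPM. Mmp9 had 47.4 CPM in tumor shAsns-2 D, where the others had 29.65 to 31.4 CPM. Cebpb had 38.55 CPM in tumor shAsns-1 C, where the others had 44 to 44.8 CPM.

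In 4 genes every library of a group moved one way in 1 setting and the opposite way in another. These differences between settings were not tested. Spp1 in libraries labelled shAsns-1 was higher than in shRenilla in tumor (log2 fold change 1.62) and lower in lung (-0.63). Amigo2 was higher in lung than in tumor under shRenilla (3.55) and shAsns-2 (1.94) and lower under shAsns-1 (-0.39). Il1a was lower in lung than in tumor under shRenilla (-1.32) and shAsns-2 (-1.84) and higher under shAsns-1 (1.06). Vegfc was lower under shRenilla (-1.18) and shAsns-2 (-1.32) and had a value of 0.39 under shAsns-1, where it was not called.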

How the results depend on the processing

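Of 35 fold changes of the 5 genes, 1 moved by more than the spread between replicates in some alternative: Amigo2 in lung shAsns-2 against shRenilla, at -0.46 and, without the pair of libraries that stood apart (replicate B of lung shRenilla, replicate D of lung shAsns-2), at -0.04. Signs changed in 4 values near 0: Casp1 in tumor shAsns-2 against shRenilla (-0.06, with a range of -0.35 to 0.07), Trib2 and Casp1 in lung shAsns-1 against shRenilla (-0.08, -0.15 to 0.11, and 0.07, -0.05 to 0.29) and Trib2 in lung shAsns-2 against shRenilla (0.06, -0.04 to 0.40). Calls of Itgb1, Nlrp1a, the cell type markers and the neighbours outside the pathway lists were not put through the alternatives. Of 59 called results of Asns and the other named pathway genes, 47 stayed called in every alternative. Counts of all genes called moved more. In lung against tumor under shAsns-1, 1079 became 3015 without that pair and 3683 with only the compared groups, and 412 to 794 with 1 library left out (6 of the 8 fits moved by over 1.5 times: without tumor A, 543, B, 532, D, 663, and without lung A, 711, C, 707, D, 412). The pathway count of 7 became 15 and 17, and 6 to 7 with 1 library left out. The balance over all genes was 758 higher and 321 lower, 841 and 577 with DESeq2, 1633 and 1382 without the pair, and 1837 and 1846 with only the compared groups. Under shAsns-2, 2642 became 4926 without the same pair and 1650 with only the compared groups, and 1782 to 3977 with 1 library left out (highest without lung shAsns-2 D). In tumor shAsns-2 against shRenilla, 8 became 47 with DESeq2, 50 without the pair and 3 with only the compared groups, and 3 to 12 with 1 library left out (shAsns-2 A, 5, B, 3, D, 5, and shRenilla A, B or D, 4). The pathway count of 1 became 0 with only the compared groups, and 0 to 1 with 1 library left out (0 without those same 6 libraries). In lung shAsns-1 against shRenilla, 26 became 72 with DESeq2 and 1 with only the compared groups, and 12 to 29 with 1 library left out (13 without shAsns-1 D, 12 without shRenilla A, 16 without shRenilla B). In lung shAsns-2 against shRenilla, 0 became 2 with DESeq2 and 4 without the pair, and 0 to 7 with 1 library left out (7 without shAsns-2 D). The cause was not tested in any of these. With the replicate block, the count in tumor shAsns-2 against shRenilla went to 5 and that of pathway genes to 0. The letters showed no steady pairing: deviations of same-lettered libraries correlated at -0.41 to 0.35, and in no comparison were all 4 pairs above 0.1. In lung against tumor under shAsns-2, 3 pairs were above 0.1 and 4 of 8 libraries were closest to their own letter. In lung shAsns-1 against shRenilla, 2 pairs were above 0.1 and 4 of 8 libraries were closest to theirs. With 4 libraries per group, these values cannot settle whether the letters pair the samples. Depth limits low genes most, such as Casp1 in tumor shAsns-2 A, with 16 reads.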
